A study of Mus musculus with 15 samples.

Results

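The 10 genes described here encode parts of the desmosome and proteins that work beside it in squamous epithelium. They are Dsp, Dsg2, Dsg3, Dsc2, Dsc3, Pkp1, Pkp3, Perp, Sfn and Ppl, chosen by symbol, and all 10 were found among the 17271 genes of the deposited table. RNA was sequenced from 15 mammary tumours of BALB/c mice, all labelled p53 null, which fall into 4 tumour models. The model 2208L had 8 samples, 2151R 4, 2225L 2 and T11 1. Of the 2208L samples, 4 were titled PBS, 3 were titled 3day nt and 1 was titled ROSEN. Of the 2151R samples, 2 were titled NT or NT2 and the others carried codes whose meaning is not given. The 2225L samples were titled T-Vivo (replicate 1) and ROSEN (replicate 2). No further treatment, age or Cre driver is named for any group. Whether samples of a model came from separate animals is not stated either, so p-values measure only the spread between these samples, which may be technical.

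A desmosome is a spot weld between epithelial cells. Its cadherins, the desmogleins (Dsg) and desmocollins (Dsc), meet those of the neighbouring cell, and armadillo proteins, the plakophilins (Pkp) and plakoglobin, tie their tails to desmoplakin (Dsp), which anchors the keratin filaments. In the mammary gland both epithelial layers form desmosomes. Dsg2 and Dsc2 are found in most epithelia, whereas Dsg3 and Dsc3 are typical of basal and stratified cells. Perp is a membrane protein needed for stable desmosomes and a known target of p53 and p63, Sfn (stratifin) is an adaptor protein of squamous epithelium and a known p53 target, and Ppl (periplakin) is a plakin of the cornified envelope.

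The promoters of Dsp and Sfn are shown because the set of RefSeq promoters used here held only these 2 of the 10 genes. Both were among the 9 members called lower in 2151R than in 2208L. CACCTG, with its reverse complement CAGGTG, is the E-box bound by the repressors of the Zeb and Snail families. Whether any repressor binds here was not tested. Sequences are from that set, on GRCm38.p6. They are written on the gene's strand, with the E-box in capitals. The 250 bases before the start of Sfn (chr4:133602169-133602418, minus strand) held 1 E-box, with its first base at -41 from the start, and 3 CG dinucleotides. The 250 bases before the start of Dsp (chr13:38151044-38151293, plus strand) held no E-box and 22 CG dinucleotides. A match starting at base 4 of the Dsp transcript is shown in a window of 30 bases (chr13:38151285-38151314).
Sfn promoter: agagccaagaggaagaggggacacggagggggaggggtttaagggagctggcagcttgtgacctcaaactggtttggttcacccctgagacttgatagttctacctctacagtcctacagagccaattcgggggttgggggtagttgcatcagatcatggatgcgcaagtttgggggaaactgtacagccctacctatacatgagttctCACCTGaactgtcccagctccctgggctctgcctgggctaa
Dsp promoter: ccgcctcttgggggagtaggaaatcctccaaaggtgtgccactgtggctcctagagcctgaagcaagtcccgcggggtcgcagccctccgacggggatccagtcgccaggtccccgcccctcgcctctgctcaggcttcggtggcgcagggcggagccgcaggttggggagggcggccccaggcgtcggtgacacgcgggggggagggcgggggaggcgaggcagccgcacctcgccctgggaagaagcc
Dsp start site: gaagaagccgacCAGGTGtggcctgggcgc
In the same window of 250 bases, 17.2% of the 32851 RefSeq promoters held the motif, and 20.2% did when the window ran on for 50 bases after the start. A match is a description of the letters only. The gene Gm10129 lies over the Dsp window on the other strand, and whether reads were counted by strand is not given in the sources used here.

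The deposited values are log2 values centred for each gene on an unstated reference level. Samples can therefore be compared gene by gene, but the levels of different genes cannot be ranked, and no depth is known because the table holds no counts. All differences below are in log2 units. A gene is called different when its limma p-value, adjusted by Benjamini-Hochberg over all 17271 genes, is under 0.05. Some samples stand apart. Skeletal muscle markers (Acta1, Ckm, Tnnt3 and Mylpf) had a mean centred value of 5.70 in replicate 3 of 2151R and of 8.93 and 8.45 in replicates 6 and 8 of 2208L, against -4.89 to 1.66 in the other 12 samples. The 2 samples of 2225L differed from each other by at least 1 log2 unit at 6 of the 10 members, against 34.1% of all genes. The 2151R libraries, the PBS libraries and the 3day nt libraries were numbered in blocks that do not meet, and PBS and 3day nt titles also begin with different letters (DH and KM). Group and numbering block cannot be told apart in those comparisons. The value of Trp53, the gene that the genotype labels give as null, was 0.09 to 0.29 in 2151R, -0.01 in T11, 1.63 and -0.18 in 2225L and -0.29 to 0.16 in 2208L. Centring hides whether the gene is transcribed at all.

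**Figure D1:**
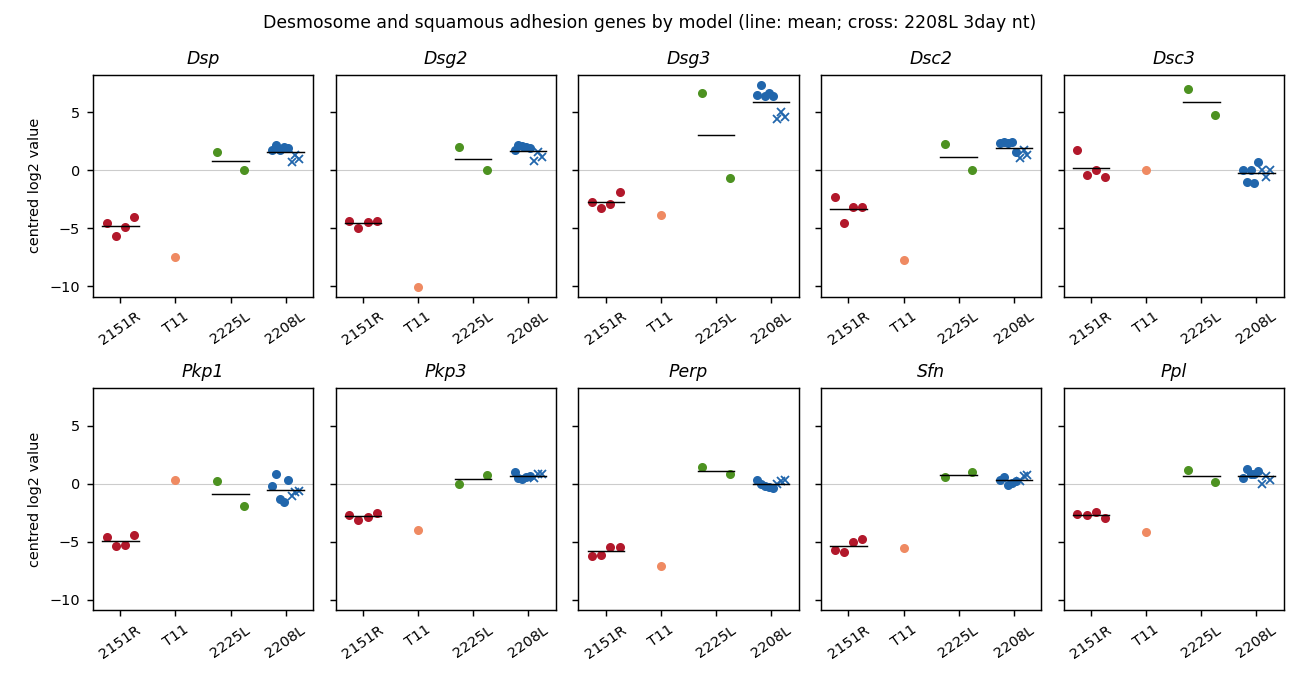
Centred log2 values (y axis) of the 10 genes in the 15 samples by model (x axis), 1 point per sample, with the mean as a line and the 2208L 3day nt samples as crosses. In 2151R every gene except Dsc3 lies below 2208L and 2225L, T11 lies lower still at most genes but not at Pkp1, and Dsc3 is high in 2225L.

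In 2151R, 9 of the 10 genes fell relative to 2208L, and none rose. Among all genes, 22.7% were called lower, 26.1% higher and 48.8% in either direction. The groups did not overlap at the same 9 genes, against 38.8% of all genes. The median difference over the 10 genes was -5.45, against 0.10 over all genes. Fewer epithelial cells in the tumour and less RNA per cell cannot be told apart in bulk samples.

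Dsp, the protein on which the keratin linkage rests, was -4.55, -5.64, -4.86 and -4.06 in replicates 1 to 4 of 2151R. In 2208L it ranged from 0.69 to 2.19 with a median of 1.74. All samples of 2151R lay below all of 2208L, by a mean difference of -6.35 (SE 0.37, limma adjusted p 1.17e-08), which is an 81.5-fold difference.

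Among the cadherins, Dsg2 was -4.39, -4.94, -4.49 and -4.39 in 2151R and 0.79 to 2.19 in 2208L (median 1.82), a difference of -6.23 (SE 0.34, limma adjusted p 7.4e-09). Dsg3, the desmoglein of basal keratinocytes, had the largest difference of the 10. It was -2.76, -3.27, -2.89 and -1.86 in 2151R and 4.44 to 7.38 in 2208L (median 6.40), a difference of -8.62 (SE 1.01, limma adjusted p 1.22e-05). Neither cadherin overlapped between the models. Dsc2 was -2.27, -4.57, -3.19 and -3.20 in 2151R and 1.09 to 2.43 in 2208L (median 2.04). Its difference was -5.22 (SE 0.47, limma adjusted p 9.35e-07), and its spread within 2151R (SD 0.95, n = 4) was larger than that of 94.4% of all genes.

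Dsc3, the desmocollin of basal and stratified layers, was the exception. It was 1.75, -0.43, 0.00 and -0.61 in 2151R, against -1.11 to 0.69 in 2208L, and the groups overlapped. The difference was 0.43 with a 95% interval from -0.66 to 1.51 (limma adjusted p 0.505). Without replicate 1 of 2151R, the highest of the model, the difference was -0.10 and remained uncalled. In 6 samples (1 of 2151R, T11 and 4 of 2208L) Dsc3 had exactly the same value, 0.00, with 5 samples below it. The labels do not explain this repeated value, and it may not be a measurement. No other member had a repeated value. A value of exactly 0 is the level on which a gene was centred. Dsp, Dsg2, Dsc2, Pkp3, Perp and Ppl each had it in 1 sample. For Dsp, Dsg2 and Dsc2 that sample was replicate 2 of 2225L.

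The plakophilins, which cluster the cadherins at the plaque, were both lower. Pkp1, the plakophilin of stratified epithelia, was -4.62, -5.40, -5.32 and -4.42 in 2151R and -1.57 to 0.86 in 2208L (median -0.68), a difference of -4.38 (SE 0.48, limma adjusted p 6.2e-06). Pkp3, found in simple and stratified epithelia alike, was -2.69, -3.12, -2.85 and -2.56 in 2151R and 0.42 to 1.03 in 2208L (median 0.61), a difference of -3.46 (SE 0.17, limma adjusted p 2.97e-09). Pkp3 was the steadiest member within 2208L, where its SD of 0.21 (n = 8) exceeded that of 14.3% of all genes. The SD of Pkp1 there was 0.83 (n = 8) and exceeded that of 82.2%.

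Among the proteins beside the plaque, Perp was -6.23, -6.17, -5.43 and -5.46 in 2151R and -0.35 to 0.30 in 2208L (median -0.03). Its difference was -5.80 (SE 0.21, limma adjusted p 1.47e-10). Sfn was -5.72, -5.91, -5.07 and -4.74 in 2151R and -0.15 to 0.72 in 2208L (median 0.26), a difference of -5.68 (SE 0.23, limma adjusted p 3.8e-10). Ppl was -2.61, -2.74, -2.44 and -2.99 in 2151R and 0.00 to 1.26 in 2208L (median 0.75), a difference of -3.37 (SE 0.24, limma adjusted p 1.06e-07). None of these genes overlapped between the models, and Ppl and Pkp3 had the smallest differences of the 9 that fell.

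Markers of other cell types moved with this comparison. Each marker list has 4 genes unless stated, and its level in a sample is the mean centred value. Of the epithelial markers Epcam, Cdh1, Krt8 and Krt18, 4 of 4 were lower, with levels from -3.81 to -2.72 in 2151R and 1.73 to 2.47 in 2208L. Of the macrophage markers 4 of 4 were higher (1.01 to 1.28 in 2151R, -1.03 to 0.34 in 2208L), as were 4 of 4 endothelial markers (0.57 to 1.23 and -1.22 to 0.18). Of the fibroblast markers 2 of 4 were higher (0.71 to 1.73 and -2.51 to 1.13), and 1 of 4 each of the T cell (0.17 to 1.04 and -2.61 to 0.85) and adipocyte markers (0.87 to 4.32 and -4.57 to 1.85). The leukocyte gene Ptprc was higher by 0.77, and of the skeletal muscle markers 0 of 4 passed the test. Of the epidermal markers 2 of the 4 listed were measured and 1 was lower, with levels from -0.79 to -0.26 in 2151R and -0.11 to 0.87 in 2208L. The part of these cell types in the result was not tested. Without the 3 samples of high muscle level the same number of members, 9, was lower.

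**Figure D2:**
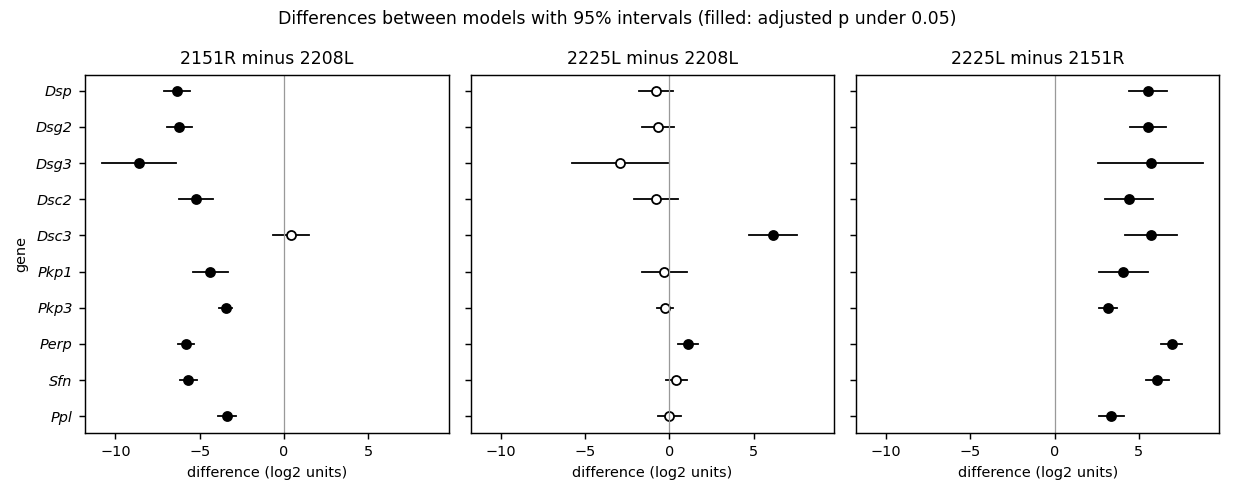
Differences between models in log2 units (x axis) for the 10 genes (y axis), with 95% intervals from the fit of all 15 samples, and filled points where the adjusted p is under 0.05. Every gene except Dsc3 is lower in 2151R than in 2208L, Dsc3 and Perp are higher in 2225L than in 2208L, and all 10 are higher in 2225L than in 2151R.

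In 2225L, 2 of the 10 genes were higher than in 2208L and none was called lower, with 15.6% of all genes called higher, 17.3% lower and 32.9% in either direction. The groups did not overlap at these 2 genes, Dsc3 and Perp, against 31.7% of all genes. Dsc3 was 7.03 and 4.78 in replicates 1 and 2 of 2225L, where no sample of another model exceeded 1.75. It differed from 2208L by 6.15 (SE 0.65, limma adjusted p 1.53e-05), a 71.2-fold difference, and from 2151R by 5.73 (SE 0.71, limma adjusted p 2.39e-05). With the repeated values set to missing, a choice made after the data were seen, both calls held. Perp was 1.45 and 0.78 in 2225L, a difference from 2208L of 1.13 (SE 0.27, limma adjusted p 0.00654). The call (Perp, 2225L minus 2208L) was lost without replicate 1 of 2225L (difference 0.80, adjusted p 0.0999) and with sample weights (1.24, adjusted p 0.148).

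The other 8 genes did not pass the test, and their intervals show how far a difference could reach. For Sfn (0.52 and 0.96 in 2225L) the difference was 0.42, with a 95% interval from -0.22 to 1.07. For Ppl (1.16 and 0.17) it was -0.01, from -0.69 to 0.67. For Pkp3 (0.00 and 0.77) it was -0.27, from -0.76 to 0.22, and for Pkp1 (0.18 and -1.93) -0.31, from -1.64 to 1.03. At each of these genes at least 1 sample of 2225L lay inside the range of 2208L.

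The 2 samples of 2225L disagreed most at Dsg3, and by 1.54 to 2.25 at Dsp, Dsg2, Pkp1, Dsc3 and Dsc2. Dsg3 was 6.64 in replicate 1, inside the range of 2208L, and -0.64 in replicate 2, above all samples of 2151R and below all of 2208L. Dsp was 1.54 and 0.00, Dsg2 1.98 and 0.00, and Dsc2 2.25 and 0.00, with replicate 1 inside and replicate 2 below the range of 2208L each time. The mean differences of these 4 genes from 2208L were -2.92 for Dsg3 (limma adjusted p 0.106), -0.80 for Dsp, -0.68 for Dsg2 and -0.78 for Dsc2, none of them called. Without replicate 1, with the lone sample assumed to vary like the other groups, Dsg3 (-6.56, limma adjusted p 0.00043) and Dsg2 (-1.68, limma adjusted p 0.0149) were called lower. Without replicate 2 the differences were 0.72 and 0.31, not called. Replicate 1 has a CP library number and replicate 2 a ROSEN number, and with 1 sample of each the library prefix and the sample cannot be told apart within 2225L. The ROSEN sample of 2208L had Dsg3 at 6.49, Dsp at 1.75, Dsg2 at 1.71 and Dsc2 at 2.37, all inside the range of the other samples of that model. Mean epithelial marker levels of the 2225L samples were close (2.01 and 2.19), as were fibroblast levels (-1.003 and -0.913). Single epithelial markers were further apart. From lower to higher, the 2 samples had 0.00 and 1.23 at Epcam and 0.03 and 0.64 at Cdh1. They had 0.00 and 1.52 at Krt8 and 0.37 and 1.39 at Krt18. The close mean therefore does not show that the samples held equal epithelial RNA. T cell (-1.38 and 1.35), adipocyte (-3.53 and 1.47) and macrophage levels (-1.87 and -0.87) were higher in replicate 2. Ptprc and the epidermal level were higher there as well. Endothelial (0.30 and -0.82) and skeletal muscle levels (0.85 and -2.07) were lower in replicate 2. Against 2208L, 0 of 4 epithelial, T cell, endothelial, fibroblast, adipocyte and muscle markers passed the test, 2 of 4 macrophage markers were lower (levels of -1.87 and -0.87) and Ptprc was lower by -2.13. Their part in the result was not tested.

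Between 2225L and 2151R, which share the fit with the comparisons above, all 10 genes were higher in 2225L, against 22.8% of all genes called higher, 25.8% lower and 48.6% in either direction. The groups did not overlap at any of the 10, against 62.4% of all genes free of overlap. The differences ran from 3.19 for Pkp3 to 6.94 for Perp (SE 0.30, limma adjusted p 2.54e-09). The call of Dsg3 (5.70, SE 1.44, limma adjusted p 0.00539) was lost without replicate 1 of 2225L (2.06, adjusted p 0.106), and the other 9 held. Cell type markers moved with this comparison as well. Epithelial markers were higher in 2225L at 4 of 4 (2.01 and 2.19, against -3.81 to -2.72 in 2151R), and macrophage markers were lower at 4 of 4 (-1.87 and -0.87, against 1.01 to 1.28). Fibroblast markers were lower at 2 of 4 (-1.003 and -0.913, against 0.71 to 1.73), endothelial markers at 1 of 4 (0.30 and -0.82, against 0.57 to 1.23), and Ptprc was lower by -2.90. Of the 2 measured epidermal markers 1 was higher, and 0 of 4 T cell, adipocyte and muscle markers passed the test. The part of these cell types in the result was not tested.

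The single sample of T11 has no replicate, and its values carry no test. It lay below all 8 samples of 2208L at 8 of the 10 genes, against 21.7% of all genes, and above them at none, against 35.8%. It lay below all 4 samples of 2151R at 7, against 30.8%. Dsg2 was -10.04, further below 2151R than any other member, at -5.48 from its mean. Dsc2 was -7.76, Dsp -7.50, Perp -7.13, Ppl -4.18, Pkp3 -3.99 and Dsg3 -3.83, each below the lowest sample of 2151R. With quantile normalization the difference of Perp from the mean of 2208L, the member most affected in proportion, went from -7.11 to -4.67. Over all alternatives, that one included, 2151R differed from 2208L at Perp by -5.93 to -5.10. With quantile normalization T11 thus no longer lay below the mean of 2151R at Perp, so that position depends on the scaling. Sfn, at -5.53, lay inside the range of 2151R. Dsc3 had the repeated value.

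Pkp1 went the other way in T11. It was 0.32, above every sample of 2151R and inside the range of 2208L. T11 lay above the range of 2151R at 39.9% of all genes, so the position alone is common, and among the 10 members it was held by Pkp1 alone. Plakoglobin (Jup), the armadillo partner of the desmosomal cadherins, was -1.64 in T11, between the samples of 2151R (-3.40 to -3.13) and those of 2208L (0.31 to 1.13). The epithelial marker level of T11 was -6.74, below the range of 2151R. Centred values show that epithelial markers were lowest there, not whether they were absent.

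Paralogs of a family were set against each other within a sample, as the difference of their values after each was centred on its mean over the 15 samples. These differences are descriptions with no test. Dsc3 minus Dsc2 separated 2208L from the rest, with -4.45 to -1.81 in 2208L, 1.66 to 3.20 in 2151R, 3.84 and 3.85 in 2225L and 6.82 in T11. In 2225L the agreement of both samples stands beside levels of Dsc3 and Dsc2 that each differed by 2.24 or 2.25 between them. In 2151R and T11 the shift came with low Dsc2, and in 2225L with high Dsc3. Several of these values of 2208L, 1 of 2151R and that of T11 rest on the repeated value of Dsc3.

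Dsg3 minus Dsg2 was 0.02 to 1.75 in 2208L and -1.84 to -0.91 in 2151R, so the ranges of these models did not overlap. The 2225L samples lay far apart, at 1.22 and -4.08, and T11 lay at 2.76. Pkp1 minus Pkp3 was -1.37 to -0.76 in 2151R and -1.01 to 1.49 in 2208L, which overlapped, and 1.28 and -1.60 in 2225L. It was 5.41 in T11, the farthest value of that pair in any sample.

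**Figure D3:**
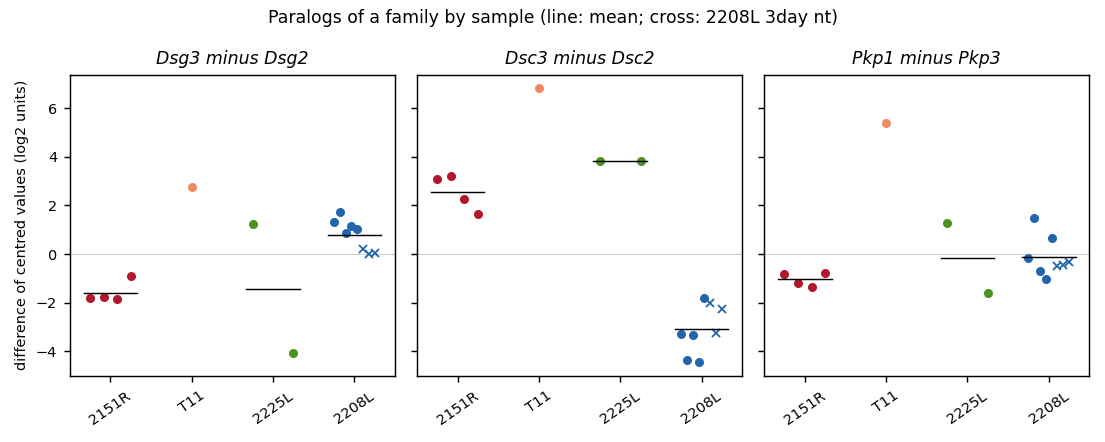
Within-sample differences of paralogs after centring each gene on its mean over 15 samples (y axis, log2 units) by model (x axis), 1 point per sample, with means as lines and 2208L 3day nt samples as crosses. Dsc3 minus Dsc2 lies from -4.45 to -1.81 in 2208L and at 1.66 or higher in all other samples, and Pkp1 minus Pkp3 is 5.41 in T11.

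The 4 cadherin genes lie in 1 cluster on chromosome 18 of GRCm38.p6, the assembly that mm10 names. Dsc3 (19960930 to 20002410), Dsc2 (20030633 to 20059554), Dsg3 (20510274 to 20541310) and Dsg2 (20558074 to 20604526) follow each other with no other gene of the table between them. The other members lie on separate chromosomes: Dsp on 13, Pkp1 on 1, Pkp3 on 7, Perp on 10, Sfn on 4 and Ppl on 16. The 5 nearest genes of the table on each side of the cluster, chosen after the values were seen, differed between 2151R and 2208L by -2.58 to 1.16. In T11 the same 10 genes differed from the mean of 2208L by -2.12 to 2.30. Dsc2, Dsg3 and Dsg2 differed by -5.22 to -8.62 and by -9.66 to -11.71. Among the genes of the table, the next one outside Dsc3 is Cdh2, the classical N-cadherin of mesenchymal cells. Its values were 1.62 to 2.25 in 2151R, 0.96 in T11, -3.05 and -2.77 in 2225L and -0.24 to 1.41 in 2208L. Distances of the 10 neighbours from the cluster are not given here, and they need not be close to it.

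**Figure D4:**
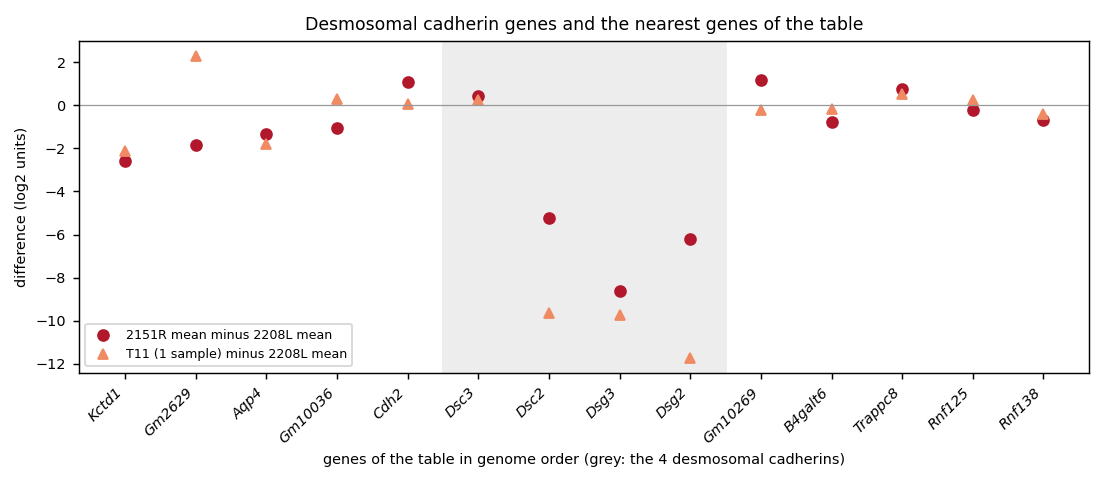
Difference from the mean of 2208L in log2 units (y axis) for the 4 desmosomal cadherins (grey) and 5 genes of the table on each side, in genome order (x axis), for the mean of 2151R (circles) and the T11 sample (triangles). Dsc2, Dsg3 and Dsg2 lie at -5.22 or lower, while Dsc3 and the 10 neighbours lie between -2.58 and 2.30.

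Within 2208L, 4 of the 10 genes were higher in PBS than in 3day nt tumours, and none was called lower, in a limma fit of the 4 and 3 samples. Among all genes 17.4% were called higher, 16.5% lower and 34% in either direction. The groups did not overlap at 4 members either, against 44.8% of all genes. Dsg3 was 7.38, 6.39, 6.62 and 6.41 in PBS and 4.44, 5.04 and 4.60 in 3day nt, a difference of 2.01 (SE 0.28, limma adjusted p 0.00521). Dsp was 2.19, 1.73, 1.97 and 1.94 in PBS and 0.69, 1.36 and 0.95 in 3day nt, a difference of 0.96 (SE 0.19, limma adjusted p 0.0119). Dsg2 differed by 0.89 (limma adjusted p 0.0154) and Ppl by 0.64 (limma adjusted p 0.047), and neither overlapped. Dsc2 was 2.43, 2.37, 2.41 and 1.56 in PBS and 1.09, 1.71 and 1.32 in 3day nt, so replicate 5 made the groups overlap. Its difference of 0.82 just missed the threshold (limma adjusted p 0.0535) and passed it without that sample (1.03, limma adjusted p 0.0101). Pkp1 differed by 0.37, and Perp (-0.37), Sfn (-0.36), Pkp3 (-0.17) and Dsc3 (-0.15) had the other sign, none of them called.

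Skeletal muscle RNA moved with these values. Replicates 6 and 8, both titled 3day nt, had muscle marker levels of 8.93 and 8.45, against 0.12 in replicate 7 and -4.28 to 1.66 in the PBS samples, and 0 of 4 muscle markers passed the test. Adipocyte levels were -4.57 to 1.55 in PBS and 1.45 to 1.85 in 3day nt (0 of 4 called), and 1 of 4 T cell markers was lower in PBS (-2.61 to 0.65 and 0.10 to 0.85). Of the 2 measured epidermal markers 1, Krt10, was lower in PBS (-0.66, limma adjusted p 0.0355), with levels of both from -0.08 to 0.11 in PBS and -0.11 to 0.44 in 3day nt. The part of these cell types in the result was not tested. Replicate 7 also lay below all PBS samples at Dsg3, Dsp, Dsg2 and Ppl. Without replicates 6 and 8, with the lone 3day nt sample assumed to vary like the PBS samples, limma called none of the 10, and 2 had an unadjusted p under 0.05. Dsg3 then differed by 1.66 (limma adjusted p 0.162). Without replicate 8 alone 1 was called, and the call of Ppl was lost without any 1 of replicates 2, 3, 4, 5, 6 and 8. Epithelial markers did not pass the test in this comparison (0 of 4), with levels from 1.77 to 1.96 in PBS and 1.73 to 2.05 in 3day nt.

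Other desmosome genes followed in part. Of 11 listed, 6 were measured, and in 2151R 3 of these were lower than in 2208L and none was higher. Jup fell by 4.07 (SE 0.17, limma adjusted p 5.93e-10) and Evpl, the envoplakin partner of periplakin, by 3.30 (SE 0.29, limma adjusted p 7.37e-07). The third was Kazn, which encodes a periplakin-binding protein, at -3.26. Pkp2, the most broadly expressed plakophilin, differed by 0.30 and Pkp4 by 0.27, neither called, while Pkp1 and Pkp3 both fell. In 2225L against 2208L, 1 of 6 was higher (Pkp4, 0.88). None was called with sample weights or when a difference of 1 log2 unit was required. The count was 1 higher and 1 lower with quantile normalization, without the 3 samples of high muscle level, without replicate 2 of 2225L or without replicate 6 of 2208L.

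Neighbouring adhesion systems were counted from lists. In 2151R against 2208L, 26.1% of all genes were called higher and 22.7% lower. In 2225L against 2208L, 15.6% were called higher and 17.3% lower. The list counts here and below stand beside these shares. Of 8 adherens junction genes 5 were lower in 2151R than in 2208L and none was higher, among them Cdh1 (E-cadherin, -5.84, limma adjusted p 3.63e-11) and Nectin4 (-4.46). When a difference of at least 1 log2 unit was required, 3 were lower. Of 9 hemidesmosome genes, which fix epithelium to the basement membrane, 5 fell and 4 rose. Lamb3, which encodes a laminin chain of the epithelial basement membrane, was lower (-4.70), whereas Col17a1, the hemidesmosomal collagen, was higher by 1.74. In 2225L Col17a1 was higher than in 2208L by 5.48 (SE 0.57, limma adjusted p 1.44e-05).

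Of 8 keratins that desmosomes can anchor, 6 fell and 2 rose in 2151R. Krt7 (-7.23) and Krt8 (-6.27), keratins of simple epithelium, had the largest differences. Krt15 (-4.78), Krt17 (-4.50), Krt14 (-2.08) and Krt18 (-2.04) fell as well. Krt5, a basal keratin, was higher by 4.73 (SE 1.11, limma adjusted p 0.00314) and Krt19 by 3.61. In 2225L 4 of 8 were higher and 1 lower than in 2208L. Krt5 was at 9.81, Krt19 at 5.67, Krt14 at 4.50 and Krt17 at 2.68, while Krt7 was at -2.87. Krt18 (0.60), Krt15 (0.45) and Krt8 (0.25) were not called. At Krt5, 2 of the 8 samples of 2208L shared an exact value. The cornified envelope and squamous differentiation list had 14 of 30 genes measured. Relative to 2208L, 8 of these fell and 3 rose in 2151R, with Lypd3 at -5.86 and Calml3 at -4.40. With only samples titled NT, nt or PBS, 5 fell and 2 rose. In 2225L 3 were higher and 1 lower, with Calml3 at 1.98.

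Of 10 epithelial transcription factors 8 fell and 1 rose in 2151R relative to 2208L, with Grhl3 at -7.18 and Elf3 at -6.73. At Grhl3, 3 of 4 samples of 2151R and T11 shared an exact value. Trp63, which encodes p63, the regulator of basal and squamous epithelium, was -0.70 to -0.24 in 2151R, -2.60 in T11, 5.55 and 4.08 in 2225L and 0.00 to 1.53 in 2208L. It was lower in 2151R by -1.47 (SE 0.31, limma adjusted p 0.00164) and higher in 2225L by 3.82 (SE 0.40, limma adjusted p 1.59e-05). Dsc3 and Trp63 were thus both highest in the 2 samples of 2225L.

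Of 6 repressors of epithelial adhesion genes, 2 rose and 1 fell in 2151R relative to 2208L. Zeb1 differed by 3.88 (SE 0.35, limma adjusted p 8.86e-07) and Zeb2 by 2.47. Snai2 did not pass the test there (0.08, limma adjusted p 0.867), was higher in 2225L than in 2208L by 2.90 (SE 0.46, limma adjusted p 0.000386) and was 0.77 in T11. Of 14 p53 target genes 6 rose and 4 fell in 2151R, against 26.1% and 22.7% of all genes. Eda2r (3.60) and Gdf15 (2.29) rose most, and Btg2 (-1.70), Bbc3 (-1.65), Plk2 (-1.50) and Trp53inp1 (-1.26) fell. The median difference was 0.23, against 0.10 over all genes. Perp and Sfn, which are p53 targets as well, differed by -5.80 and -5.68. The part of p53 in these differences was not tested.

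**Figure D5:**
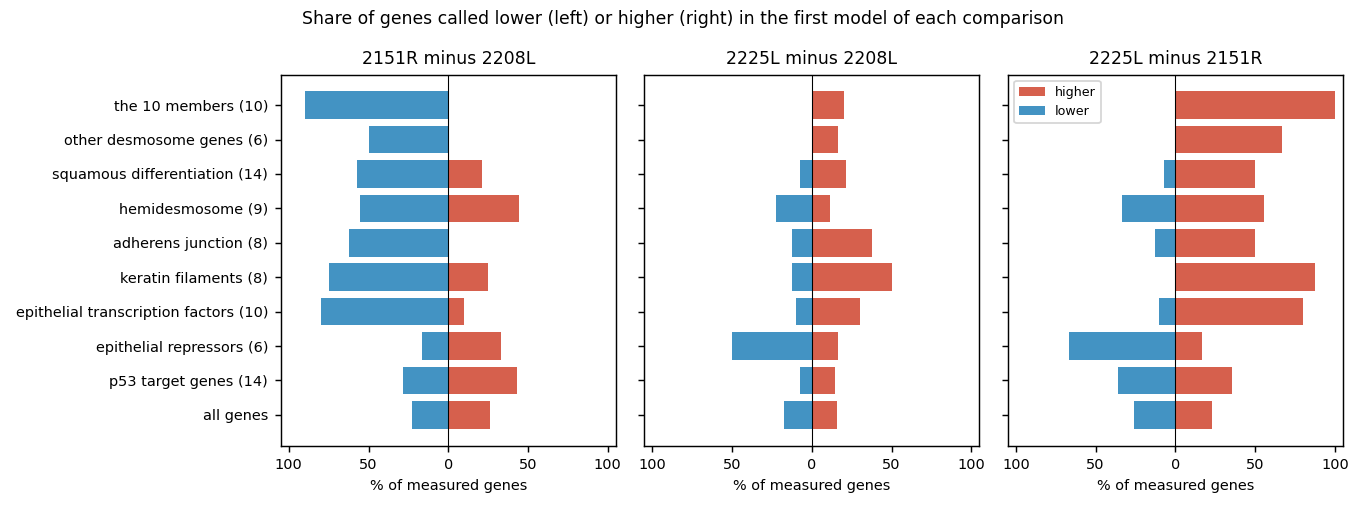
Share of measured genes called higher (right) or lower (left) in the first model of each comparison (x axis, percent), for the 10 members, 8 related lists with the number measured, and all genes (y axis). The members are lower in 2151R at 9 of 10, against 22.7% of all genes, and p53 target genes are called in both directions.

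Genes of the most similar pattern were found by the mean absolute difference between centred values over the 15 samples. Nearest to Dsp were Esrp2 (0.33), an epithelial splicing factor, Dsg2 (0.38) and the tight junction gene Marveld3 (0.40), against a median of 3.08 over all genes. Dsc2 was sixth at 0.49, while Dsc3 stood at 3.58. Nearest to Dsg3 were Pipox (0.84), Gm16010 (0.86) and Lad1 (0.94), which encodes a basement membrane filament protein, against a median of 4.17. Nearest to Perp were Ell3 (0.27), Tmem40 (0.31) and Sfn (0.31), against a median of 2.86. The samples fall into clusters by model, so these distances mostly describe differences between models.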

How the data were processed

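RNA was measured in 15 tumours with poly(A) libraries, per the labels' protocols. The authors deposited 1 table of log2 values, centred for each gene on a median, as the name they gave the table says. The offset before the logarithm, the annotation and the set of samples behind the median are not given in the sources used here. The submitters' processing notes list STAR, Salmon and mm10, with no role or version. Values were used as deposited. Depth is unknown, so precision rests on the spread between samples.

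Titles gave each sample's model, and replicates were numbered in accession order, which pairs none. All 17271 genes were fitted with limma 3.58.1 in R 4.3.3 (lmFit, eBayes without a trend), with a mean per model over 15 samples, and with the 7 PBS and 3day nt samples for the comparison within 2208L. P-values were adjusted by Benjamini-Hochberg. The fit was also run on simulated independent normal values. These lack the numbering blocks of the real samples, so that run does not bear on the calls here. T11 has 1 sample and no test. The members and lists were chosen with earlier results of these data known. Named genes are the members, the 2 genes per list that differed most between 2151R and 2208L, the 3 nearest to Dsp, Dsg3 and Perp, and Trp63, Zeb1, Snai2 and Trp53. One gene that this rule names is not reported here. Kazn, Pkp2, Pkp4, Krt5, Krt14, Krt15, Krt17, Krt19, Col17a1, Cdh2, Btg2, Bbc3, Plk2, Trp53inp1 and the marker genes are named outside this rule, after their values were seen. Gene positions and promoters are from RefSeq on GRCm38.p6. Alternatives covered scaling, the prior, sample weights, gene filters, covariates and leaving out samples.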

Additional observations from a re-analysis of the deposited data

Results flagged for a closer look

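Among 30 groups of 4 or 8 samples of a member, 1 held a sample far from the others, and chance alone gives about 1 in 20. Dsc2 in the PBS samples of 2208L was 1.56 in replicate 5, while the other 3 lay from 2.37 to 2.43. Over all 8 samples of 2208L the same sample did not stand apart.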

How the results depend on the processing

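No paired analysis was possible because replicates were numbered here, in accession order. In all 25 alternatives 9 members were called for 2151R against 2208L, and in all 18 for 2225L against 2151R 9 or 10 were. For 2225L against 2208L, 2 were called, but 1 with sample weights and 1 with genes of a repeated exact value left out, which removes Dsc3. Leaving out a sample gave 2 to 3. With sample weights 2 of 8 keratins and 1 of 14 squamous genes were called in that comparison. For 2208L PBS against 3day nt, 4 members were called in the main fit and 1 when a difference of 1 log2 unit was required. Sample weights gave 8 (5 higher and 3 lower), and leaving out a sample gave 1 to 5. The fit without the 3 samples of high muscle level is described above. With sample weights 8 of 14 p53 target genes, 6 of 9 hemidesmosome genes and 1 of 8 keratins were called as well. The share of all genes called under each alternative is not given here, so member counts cannot be set against it.

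Sign changes were of differences that the main fit did not call. The low ends given below for Dsg2 and Dsg3 come from the fit without replicate 1 of 2225L described above. Dsc3 in 2151R against 2208L was -0.019 with only samples titled NT, nt or PBS and from -0.10 to 0.69 when a sample was left out. In 2225L against 2208L, Pkp1 was 0.078 with quantile normalization, and Ppl was 0.00556 with samples centred on their median and 0.18 with library prefix as a covariate. Leaving out 1 sample took Dsg2 from -1.68 to 0.31, Dsg3 from -6.56 to 0.72, Dsc2 from -1.91 to 0.34, Pkp1 from -1.36 to 0.75, Pkp3 from -0.66 to 0.12 and Ppl from -0.51 to 0.49. In PBS against 3day nt, Dsc3 was 0.24 without the 3 muscle samples, 0.12 with repeated values set to missing and from -0.50 to 0.10 when a sample was left out. Pkp1 was -0.070 with sample weights and from -0.068 to 0.74 when a sample was left out. The cause of these changes was not tested. For T11, quantile normalization moved 7 of 10 differences from 2208L toward 0 by more than the spread between replicates (Perp, T11 minus 2208L, from -7.11 to -4.67). Setting repeated values to missing and the alternatives for T11 and for paralogs were chosen after the data were seen. Depth, being unknown, limits how low values can be read.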
